A study of Sus scrofa with 5 samples.

Results

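Markers of T lymphocytes and natural killer (NK) cells were followed in RNA sequencing of whole ovarian follicles of the pig (Sus scrofa), from females of the Indian Ghoongroo breed. The 39 genes on the marker list were looked up by symbol among the 30822 genes of the deposited tables, and 38 had a row. The study set 3 libraries of large follicles against 2 libraries of small follicles, each labelled as a biological replicate, with no other treatment or allele named. The sources used here do not give follicle diameters, the animals or follicles behind a library, or the stage of the cycle. Each p-value therefore covers the spread among these 5 libraries alone, which may be technical. A library held all cells of the follicle, and in such bulk samples fewer cells of a type and less RNA per cell cannot be told apart.

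T cells recognise antigen through a T cell receptor that signals by way of the CD3 and zeta chains, the kinase LCK and the adaptor LAT. CD4 and CD8 are coreceptors that mark helper and cytotoxic T cells. NK cells and cytotoxic T cells kill through granules of perforin and granzymes. In the ovary, lymphocytes reach the theca and stroma through blood vessels, while the granulosa layer of a healthy follicle lies behind a basement membrane and has no vessels. Pigs differ from mice and humans in having many circulating T cells that carry both CD4 and CD8 alpha.

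Values are FPKM, fragments scaled to gene length and library total, as the authors computed them. Library totals, worked back from the steps of the FPKM values, ranged from 9991708 to 11507527 fragments in large and from 9523739 to 10038500 in small follicles. At this depth the fragments behind most of these genes were few, and they are given beside the levels where they matter. The tissue label was borne out by its defining markers: of the granulosa and theca lists, none was at 0 in every library, with the inhibin subunit INHA between 4474 and 11739 FPKM in large and between 2876 and 3515 FPKM in small follicles.

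T and NK transcripts were scarce in follicles of both sizes, and no gene of the list passed the test for a difference between them. Of the 38 genes, 2 averaged 10 FPKM or more over the 5 libraries, 11 averaged 1 FPKM or more, and 21 stayed under 0.5 FPKM. The median over the 38 was 0.378 FPKM, and 1 gene, CTLA4, was listed at 0 in every library. The core genes CD3E, CD3G, CD247, CD2 and LCK had log2 fold changes between -0.11 and 0.28, each with an SE of 0.25 to 0.30. CD4 was higher and the chemokine gene CCL5 lower in large follicles without overlap, each at an adjusted p between 0.08 and 0.10.

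The test took in any gene that reached 1 FPKM in 2 or more libraries, which 13 members and 13087 genes in all did. The test was limma's moderated two-sided test on log2(FPKM + 1), with Benjamini-Hochberg adjustment over all genes tested and a call at an adjusted p under 0.05. Fold changes on this scale are large minus small and understate the change of low genes. By limma 0 of 13 members were called, where 0.978% of all genes tested were. At an unadjusted p under 0.05 there were 2 of 13, where 10.4% of all genes tested passed, and limma voom on the recovered fragments called 0. Of the 13, 10 had higher and 3 lower values, where 39.9% of all genes tested had higher ones. The median of their log2 fold changes was 0.18, against -0.08 for all genes tested. Values of the groups did not overlap for 4 of 13, against 26.1% of all genes tested: 3 were higher and 1 lower in large follicles, beside 10.9% and 15.2%. Because CD4 reached the filter through its large follicle libraries alone, these counts describe the genes that passed and carry no weight for the list.

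**Figure D1:**
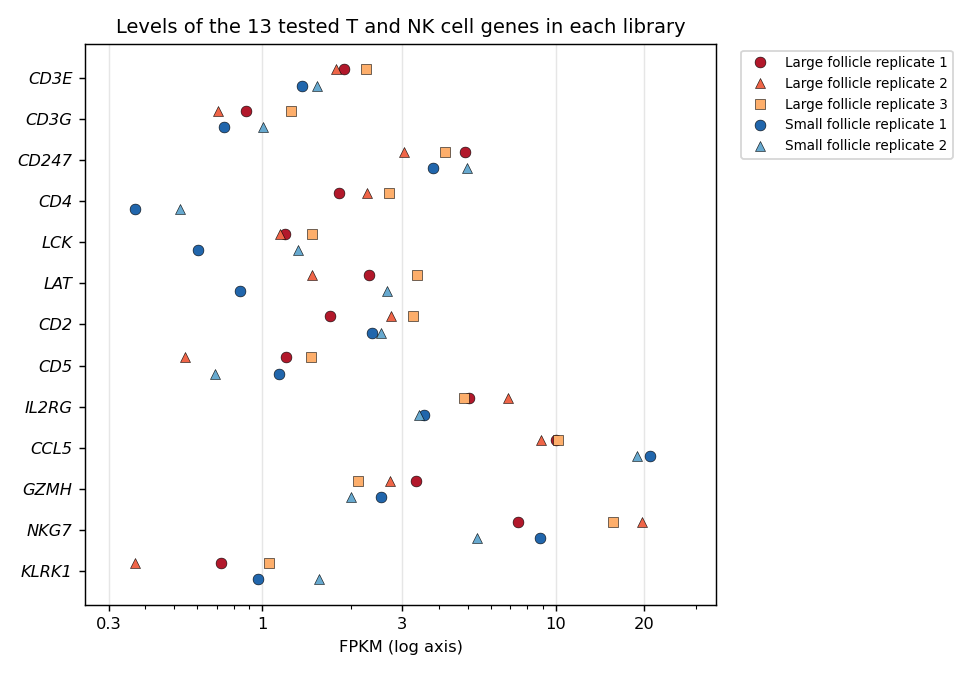
FPKM on a log axis of the 13 members that were tested, 1 point per library, with the 3 large follicle libraries above the 2 small follicle libraries in each row. CD4, CD3E and IL2RG lie higher and CCL5 lower in large follicles without overlap, and the other 9 genes overlap.

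The signalling chains of the T cell receptor were detected in every library, with no call between the sizes. CD3E (gene 397455, Sscrofa11.1 chromosome 9, 45619730 to 45633972), the CD3 epsilon chain, had 1.90, 1.79 and 2.25 FPKM in large and 1.36 and 1.54 FPKM in small follicles. All 3 large follicle libraries were above both small ones, from 22 to 29 fragments against 16 and 19. The log2 fold change was 0.28 ± 0.26 (SE; limma adjusted p = 0.812). CD3G (chromosome 9, 45645243 to 45656779), the CD3 gamma chain, had 0.880, 0.709 and 1.26 FPKM in large and 0.744 and 1.01 FPKM in small follicles, and the groups overlapped (log2 fold change 0.05, SE 0.25, limma adjusted p = 0.975). CD247 (chromosome 4, 83494266 to 83586887), the zeta chain, was the most abundant of the 4 per length, with 4.89, 3.04 and 4.18 FPKM in large and 3.82 and 4.98 FPKM in small follicles. Its groups overlapped as well (log2 fold change -0.11, SE 0.30, limma adjusted p = 0.947).

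CD3D, the CD3 delta gene next to CD3G, did not reach the filter. It had 2, 2 and 12 fragments in large follicles, against 7 and 7 in small ones, so large follicle replicate 3 alone held 12 of the 16 large follicle fragments. The 4 receptor chains summed to 7.90, 5.80 and 9.20 FPKM in large and 6.89 and 8.44 FPKM in small follicles. Small follicles lay inside the range of the large ones.

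Receptor constant regions carry no gene symbol in these files and are recognised from the description of their rows. The beta-1 constant region, LOC100621559, had 1.53, 0.726 and 0.891 FPKM in large and 0.326 and 0.723 FPKM in small follicles, and the delta constant region, LOC102160313, had 0.585, 0.632 and 1.25 against 0.575 and 0.461 FPKM. Both were under the filter, and the small gaps between the groups came at levels near 1 FPKM.

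CD4 departed from the CD3 chains. CD4 (gene 404704, chromosome 5, 63892129 to 63918547), the coreceptor of helper T cells, had 1.83, 2.28 and 2.71 FPKM in large and 0.368 and 0.523 FPKM in small follicles. The lowest large follicle library was above the highest small one, and the fragments behind the values were 60, 65 and 81 against 10 and 15. The means were 2.27 ± 0.443 FPKM in large (SD, n = 3) and 0.446 ± 0.11 FPKM in small follicles (SD, n = 2), a 5.10-fold difference of FPKM. On the log2(FPKM + 1) scale it was 1.17 ± 0.26, and with a limma adjusted p = 0.0813 it was not called. CD4 was tested only because its large follicle libraries reached the filter. Its limma adjusted p was 0.0306 by median-of-ratios scaling and 0.0438 by quantile normalization, but 0.164 with a common FPKM sum, 0.207 with no filter and 0.584 under the replicate block.

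The CD8 genes did not go with CD4. CD8A, the CD8 alpha chain, had 0.172, 0.138 and 0.321 FPKM in large and 0.228 and 0.433 FPKM in small follicles, from 7 to 17 fragments against 11 and 22. CD8B, the beta chain found on cytotoxic T cells, had 6, 4 and 3 fragments in large follicles, against 1 and 7 in small ones. The groups overlapped for both, and neither reached the filter.

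Within each library, CD4 stood at 0.959, 1.27 and 1.21 times CD3E in large and at 0.270 and 0.341 times CD3E in small follicles, in FPKM. CD8A stood at 0.0940, 0.0608 and 0.118 times CD4 in large and at 0.621 and 0.827 times CD4 in small follicles. Neither ratio overlapped between the groups. These ratios, and that of CCL5 over CD3E below, were chosen after the values were seen. The two-sided exact permutation test over libraries gave p = 0.2 for each of the 3 ratios, 0.2 after adjustment over the 3, which is the smallest p that 3 against 2 allows. Any ratio without overlap gives this p, so the test decides nothing here. Other ratios given below were not tested.

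**Figure D2:**
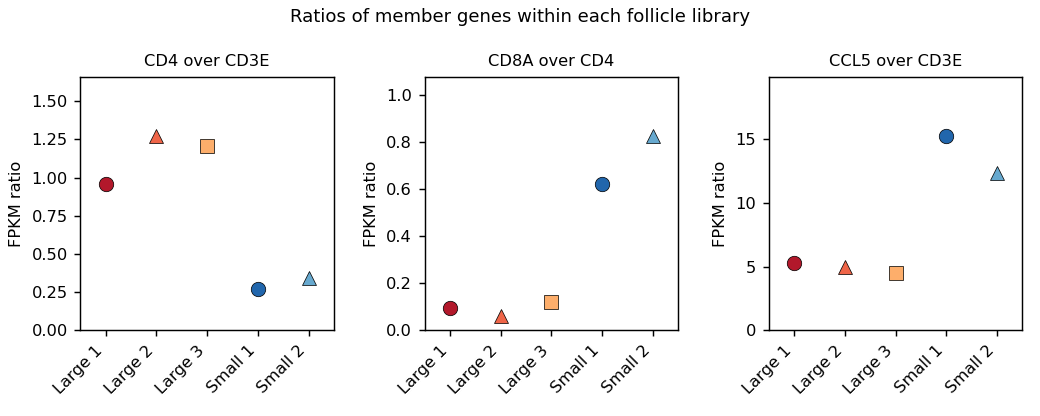
Ratio of FPKM values within each library for CD4 over CD3E, CD8A over CD4 and CCL5 over CD3E, with the 3 large follicle libraries left of the 2 small follicle libraries and 1 point per library. In none of the 3 panels do the groups overlap: CD4 over CD3E is at 0.959 or more in large and at 0.341 or less in small follicles.

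CD4 also occurs on some macrophages and dendritic cells in other mammals. Most tested myeloid and general leukocyte markers, like CD4, stood higher in large than in small follicles. In the list of myeloid markers 17 of 19 tested genes had higher and 2 lower values, 12 of them higher without overlap, beside 39.9% and 10.9% of all genes tested. The gene called was LYZ, lysozyme, at 53.7, 64.0 and 62.5 FPKM in large and 7.48 and 8.75 FPKM in small follicles (limma adjusted p = 0.000551). The summed level of that list was 532 to 773 FPKM in large and 434 to 480 FPKM in small follicles, and none of its genes was at 0 in every library. The neutrophil gene S100A8 was listed at 0 in both small follicle libraries. In the list of genes shared by all leukocytes 12 of 13 tested had higher values, 8 without overlap, beside the same shares of all genes. Its sums were 176 to 218 against 123 to 138 FPKM. Within a size, the sums of these lists did not follow CD4 throughout. From small follicle replicate 1 to replicate 2 CD4 rose from 0.368 to 0.523 FPKM. The myeloid sum fell from 480 to 434 FPKM and the leukocyte sum from 138 to 123 FPKM. Among large follicles CD4 and both sums were lowest in replicate 1, but CD4 peaked in replicate 3 and both sums in replicate 2. Set against PTPRC (CD45), the common leukocyte antigen, CD4 stood at 1.38, 2.23 and 0.981 times its FPKM in large and at 0.586 and 0.363 times in small follicles. This ratio did not overlap between the groups. PTPRC itself did overlap, at 1.32, 1.02 and 2.77 FPKM in large and 0.628 and 1.44 FPKM in small follicles. It thus differed from the 8 genes of its list that did not overlap. The part of other leukocytes in the level of CD4 was not tested.

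The proximal signalling genes showed no difference beyond the spread of the libraries. LCK (chromosome 6, 88719886 to 88745922), the kinase that phosphorylates the CD3 chains, had 1.19, 1.15 and 1.48 FPKM in large and 0.605 and 1.32 FPKM in small follicles (log2 fold change 0.23, SE 0.27, limma adjusted p = 0.863). LAT (chromosome 3, 18638992 to 18644353), the membrane adaptor downstream, had 2.31, 1.48 and 3.35 FPKM in large and 0.844 and 2.65 FPKM in small follicles (log2 fold change 0.34, SE 0.37, limma adjusted p = 0.847). For both genes small follicle replicate 1 was the lowest library, and without it the log2 fold changes were -0.03 for LCK and -0.15 for LAT.

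Below the filter, SKAP1, an adaptor of integrin adhesion, had 12, 7 and 16 fragments in large follicles, against 7 and 8 in small ones. PTPN22, a phosphatase that dampens receptor signalling, had at most 3 fragments in any library. SH2D1A, the adaptor SAP, had 1, 1 and 0 fragments in large follicles, against 1 and 3 in small ones, too few for any comparison. The symbol ZAP70 had no row. A row described as the tyrosine-protein kinase ZAP-70, LOC100739325, had 1.26, 0.901 and 0.673 FPKM in large and 0.370 and 0.935 FPKM in small follicles, with overlap.

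**Figure D3:**
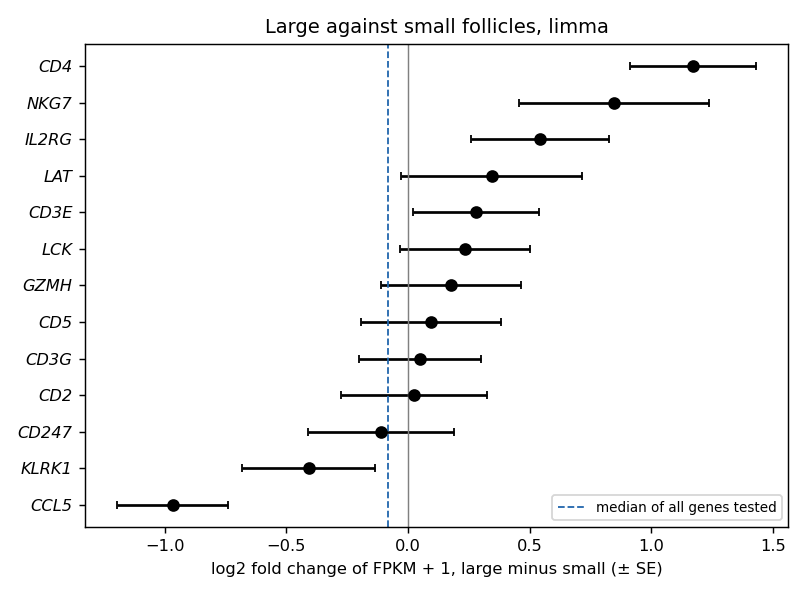
Log2 fold change on the log2(FPKM + 1) scale, large minus small, with its SE for the 13 tested members in order of size, beside the median of all 13087 genes tested (dashed line at -0.08). CD4 at 1.17 and CCL5 at -0.97 are at the ends, and none of the 13 was called.

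Among the surface receptors of the T lineage, none was called. CD2 (chromosome 4, 103963802 to 103976971), an adhesion receptor of T and NK cells, had 1.70, 2.74 and 3.27 FPKM in large and 2.36 and 2.53 FPKM in small follicles. Both small follicle values lay within the large follicle range (log2 fold change 0.03, SE 0.30, limma adjusted p = 0.990). CD5 (chromosome 2, 10648973 to 10673479), an inhibitory scavenger-type receptor, had 1.20, 0.544 and 1.46 FPKM in large and 1.14 and 0.689 FPKM in small follicles (log2 fold change 0.09, SE 0.29, limma adjusted p = 0.954). CD6, its neighbour on chromosome 2 and a relative of CD5, had 13, 18 and 11 fragments in large follicles, against 7 and 9 in small ones. That was higher without overlap, but under the filter. CD7, an immunoglobulin-family receptor of T and NK cells, had at most 6 fragments and overlapped. CD96, an adhesion receptor that binds the poliovirus receptor, had 5, 2 and 4 fragments in large follicles, against 5 and 7 in small ones, which did not overlap once scaled to FPKM. CD6 and CD96 each overlap another gene on the opposite strand, as do SKAP1 and IL7R, and CD96 also shares 1163 bases with a gene on its own strand.

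Costimulatory and regulatory genes were all under the filter, and 2 of them stood lower in large follicles without overlap, as did 11.4% of all genes under the filter. FOXP3 (gene 444998, chromosome X, 43303777 to 43328164), the transcription factor of regulatory T cells, had 0.0677, 0.0779 and 0.149 FPKM in large and 0.382 and 0.336 FPKM in small follicles. The fragments were 3, 3 and 6 against 14 and 13. In the fit with no filter, which called 0.137% of all genes and 0 members, its limma adjusted p was 0.209. The locus overlaps 89 bases of CCDC22 on the other strand. No source used here says whether counting used the strand, so fragments of the 2 genes cannot be told apart there. CCDC22 had 11.3 to 14.4 FPKM in large and 13.4 to 15.4 FPKM in small follicles.

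CD27 (chromosome 5, 64197594 to 64202236), a costimulatory receptor of the tumour necrosis factor receptor family, had 0.695, 0.267 and 0.510 FPKM in large and 1.40 and 0.930 FPKM in small follicles. The fragments were 6, 2 and 4 against 10 and 7, and with no filter the limma adjusted p was 0.469. CD28, the main costimulatory receptor of T cells, had at most 3 fragments in a library, and ICOS, its relative, at most 2. CD40LG, the helper T cell ligand of CD40, had 1, 0 and 4 fragments in large follicles, against 2 and 2 in small ones. CD69, an early activation marker, had 2, 4 and 2 against 2 and 3. CTLA4, the inhibitory counterpart of CD28, had 0 fragments in every library. With 3 fragments as the limit that a count of 0 allows, CTLA4 could still have stood at up to 0.386 to 0.444 FPKM in the large and 0.442 to 0.466 FPKM in the small follicle libraries, counting error only.

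**Figure D4:**
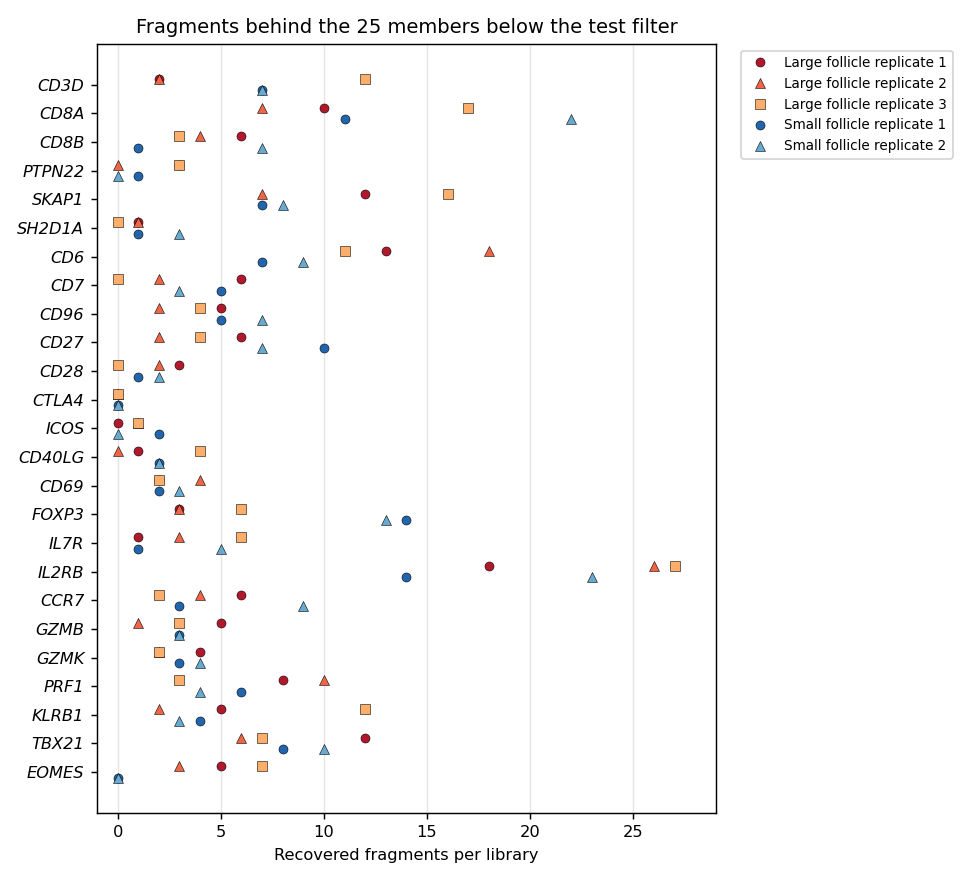
Fragments recovered per library for the 25 members that did not reach the filter, with large follicle libraries drawn above small follicle libraries in each row and some points hidden by others at the same count. No library holds more than 27 fragments of any of these genes. In fragments, FOXP3 and CD27 lie lower and EOMES and CD6 higher in large follicles without overlap. CTLA4 is at 0 throughout.

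Among the cytokine and homing receptors, IL2RG was the gene that reached the filter. IL2RG (gene 397156, chromosome X, 57143568 to 57151242), the common gamma chain that several interleukin receptors share, had 5.04, 6.89 and 4.87 FPKM in large and 3.55 and 3.43 FPKM in small follicles. The groups did not overlap, with 80 to 108 fragments against 53 and 54 (log2 fold change 0.54, SE 0.28, limma adjusted p = 0.577). Other leukocytes also express it, and their markers are given beside CD4 above; their part in its level was not tested. Its locus overlaps 359 bases of MED12 on the other strand, and MED12 went the other way, at 6.31 to 11.0 FPKM in large against 14.0 and 14.7 FPKM in small follicles.

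IL2RB, the beta chain of the interleukin-2 and interleukin-15 receptors, had 18, 26 and 27 fragments in large follicles, against 14 and 23 in small ones. IL7R, the survival receptor of resting T cells, had 1, 3 and 6 fragments in large follicles, against 1 and 5 in small ones. CCR7, the lymph node homing receptor, had 6, 4 and 2 against 3 and 9. All 3 genes overlapped between the groups and stayed under the filter.

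CCL5 and NKG7 were the most abundant members, and they went in opposite directions. CCL5 (gene 396613, chromosome 12, 39652731 to 39659121), a chemokine made by cytotoxic lymphocytes and other cells, had 9.99, 8.90 and 10.2 FPKM in large and 20.8 and 18.9 FPKM in small follicles. The highest large follicle library was below the lowest small one, and the spread within each size was narrow. The means were 9.69 ± 0.697 FPKM in large (SD, n = 3) and 19.9 ± 1.33 FPKM in small follicles (SD, n = 2), from 65 to 84 fragments against 145 and 139. The log2 fold change was -0.97 ± 0.23, and with a limma adjusted p = 0.0982 it was not called. In the same libraries CCL5 stood at 5.24, 4.98 and 4.53 times CD3E in large and at 15.3 and 12.3 times CD3E in small follicles.

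NKG7 (chromosome 6, 58496089 to 58497827), a membrane protein of cytotoxic granules, had 7.40, 19.7 and 15.6 FPKM in large and 8.85 and 5.38 FPKM in small follicles. Large follicle replicate 1 lay between the small follicle libraries, so the groups overlapped (log2 fold change 0.85, SE 0.39, limma adjusted p = 0.503). Without that library the log2 fold change was 1.23 and still not called. NKG7 was above the granzyme and perforin genes of the list in every library, while the granule gene GNLY, granulysin, which is not on the list, had 11.8, 11.5 and 11.4 FPKM in large and 15.1 and 7.86 FPKM in small follicles. In the same libraries NKG7 stood at 3.89, 11.0 and 6.95 times CD3E in large and 6.49 and 3.50 times CD3E in small follicles.

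GZMH, granzyme H (chromosome 7, 74723800 to 74727396), had 3.33, 2.72 and 2.12 FPKM in large and 2.54 and 2.01 FPKM in small follicles, with overlap (log2 fold change 0.18, SE 0.29, limma adjusted p = 0.904). GZMB, granzyme B, lies close by on chromosome 7 and had 5, 1 and 3 fragments in large follicles, against 3 and 3 in small ones. No source used here says how fragments shared by granzymes of similar sequence were assigned, so the split between these 2 genes is uncertain. GZMK, granzyme K, had 4, 2 and 2 fragments in large follicles, against 3 and 4 in small ones. PRF1, perforin, the pore-forming protein of the same granules, had 8, 10 and 3 against 6 and 4. Granzyme B, granzyme K and perforin thus each stayed at 10 fragments or fewer in every library.

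KLRK1, the activating receptor NKG2D of NK and CD8 T cells (chromosome 5, 61646691 to 61655386), had 0.721, 0.369 and 1.06 FPKM in large and 0.969 and 1.56 FPKM in small follicles (log2 fold change -0.41, SE 0.27, limma adjusted p = 0.709). KLRB1, the receptor CD161, had 5, 2 and 12 fragments in large follicles, against 4 and 3 in small ones. A row described as another KLRB1 type, LOC100520491, had far more, at 5.92, 9.09 and 9.33 FPKM in large and 9.24 and 6.44 FPKM in small follicles, so the KLRB1 level is uncertain where fragments could fall on either copy. TBX21, T-bet, the factor of type 1 and cytotoxic programmes, had 12, 6 and 7 fragments in large follicles, against 8 and 10 in small ones.

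EOMES, eomesodermin, the T-box relative of TBX21 (gene 100622125, chromosome 13, 14209590 to 14216184), had 5, 3 and 7 fragments in large follicles, against 0 and 0 in small ones. Over the groups that was 15 fragments against 0, at least 3.06-fold higher per library fragment in large follicles with 3 fragments over the small group as the limit that 0 allows. That bound takes the 15 as exact and covers counting error only. The gene was under the filter, and with no filter its limma adjusted p was 0.356. Among the 24 untested members above 0, 2 were higher and 4 lower in large follicles without overlap, beside 9.69% and 11.4% of the 10266 genes under the filter. The genes were EOMES and CD6, and FOXP3, CD27, CD96 and SH2D1A. For SH2D1A the gap was 0.259 against 0.271 FPKM, from 1 fragment in each of the nearest libraries. For CD96 the nearest libraries each held 5 fragments. The gaps of SH2D1A and CD96 thus came from the library totals and carry no weight.

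Summed over all 38 genes, the members took 79.4, 86.0 and 96.7 CPM (recovered fragments scaled to the library total) in large follicles, against 73.4 and 81.3 CPM in small ones, with overlap. Without CCL5 and NKG7 the sums were 63.3, 56.1 and 70.7 against 47.7 and 61.1 CPM. By mean FPKM 21 of the 37 members above 0 were higher and 16 lower in large follicles, beside 45.7% of all genes above 0 that were higher. Of these 37 genes, 14 were highest in large follicle replicate 3, which is 37.8%, where 19.2% of all genes above 0 were highest there. The 14 were CD3D, CD3E, CD3G, CD4, LCK, LAT, PTPN22, SKAP1, CD2, CD5, CD40LG, IL7R, KLRB1 and EOMES.

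Other genes of the receptor pathway also gave no call. Of 24 symbols of receptor signalling, 22 had a row and 10 were tested. Of these 2 had higher and 8 lower values, where 39.9% of all genes tested had higher ones. The median log2 fold change was -0.17, against -0.08 for all genes tested. Without overlap 1 was higher and 2 lower, beside 10.9% and 15.2% of all genes tested. By limma 0 were called and 0 passed at an unadjusted p under 0.05, beside 0.978% and 10.4% of all genes tested. Voom called 0. With 10 genes these counts carry no weight for the pathway. NFATC3, a transcription factor activated by calcium signals, had -0.76 ± 0.34 and VAV1, an exchange factor of leukocytes, had 0.57 ± 0.28 (limma adjusted p = 0.479 and 0.538). Several of these genes, such as FYN, CSK and PLCG1, are also expressed outside lymphocytes.

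Of 20 further T cell genes 4 were tested and 0 were called by limma or voom. At an unadjusted p under 0.05 there was 1, where 10.4% of all genes tested passed. That gene was TCF7, the factor TCF1 of naive and memory T cells that also serves Wnt signalling elsewhere. TCF7 had 1.78, 2.33 and 2.10 FPKM in large and 4.43 and 4.86 FPKM in small follicles (log2 fold change -0.88, SE 0.27, limma adjusted p = 0.242). Of 20 further cytotoxic and NK genes 7 were tested, 6 with higher and 1 with lower values, at a median log2 fold change of 0.32. Without overlap 4 were higher and 1 lower, beside 10.9% and 15.2% of all genes tested. By limma and by voom 0 were called, with 2 at an unadjusted p under 0.05, as were 10.4% of all genes tested. Those were HCST, the adaptor DAP10 of NKG2D, at 1.24 ± 0.34, and FCGR3A, the Fc receptor CD16 of NK cells and macrophages, at 0.75 ± 0.24 (limma adjusted p = 0.168 and 0.264). FASLG and CD160 were at 0 in every library, and the NK receptor NCR1 did not exceed 0.175 FPKM in large or 0.0582 FPKM in small follicles.

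**Figure D5:**
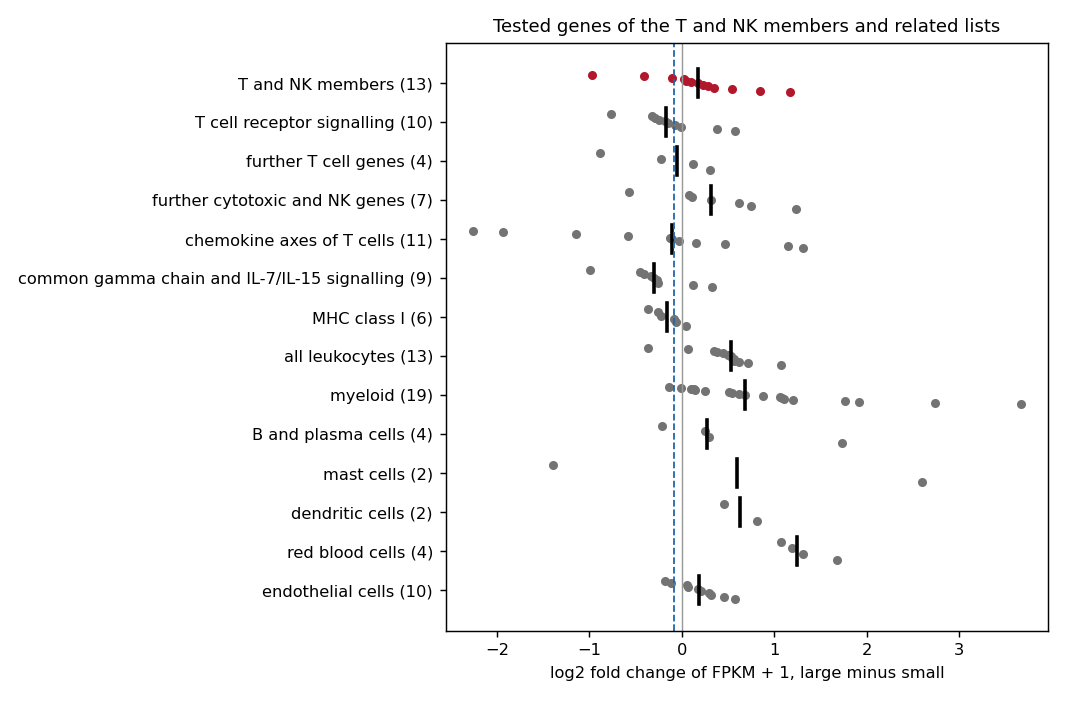
Log2 fold changes on the log2(FPKM + 1) scale, large minus small, of the tested members (red) and of the tested genes of 13 related lists (grey), with the number tested in brackets, the list median as a black bar and the median of all genes tested as a dashed line at -0.08. The members range from -0.97 to 1.17 around a median of 0.18, while the medians of the leukocyte and myeloid lists are 0.53 and 0.69.

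Chemokines that act on T cells gave the calls nearest to the list. Of 16 genes of these axes 11 were tested, 4 with higher and 7 with lower values, and 1 was called in each direction, beside 0.535% and 0.443% of all genes tested. CXCL9, an interferon-induced ligand of the receptor CXCR3 on activated T cells, fell to 2.90, 1.33 and 2.12 FPKM in large follicles, against 9.10 and 20.1 FPKM in small follicles (log2 fold change -2.26, SE 0.38, limma adjusted p = 0.0295). This call was lost without large follicle replicate 1 (limma adjusted p = 0.0902) and without small follicle replicate 2 (0.172). It was also lost by voom (0.0868), with a filter at a mean of 5 FPKM (0.0556) and with no filter (0.151). The other CXCR3 ligands, CXCL10 and CXCL11, had log2 fold changes of -1.94 ± 0.44 and -1.14 ± 0.29 and were not called (limma adjusted p = 0.0915 and 0.134). CXCL10 was called with median-of-ratios scaling (0.0358), quantile normalization (0.0451), a common FPKM sum (0.0478) and the replicate block (0.0112), and without large follicle replicate 2 (0.0293) or 3 (0.00835).

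CXCL16, the ligand of the T and NK cell receptor CXCR6, rose to 24.1, 30.0 and 26.2 FPKM in large follicles, against 10.7 and 12.4 FPKM in small follicles (log2 fold change 1.14, SE 0.22, limma adjusted p = 0.0487). That call was just inside the threshold and lost without any library but large follicle replicate 2, at limma adjusted p values of 0.0536 to 0.257. It was lost by voom (0.160), under the replicate block (0.264) and with most other settings as well. The receptor CXCR3 had at most 0.416 FPKM in large and 0.0545 FPKM in small follicles, higher without overlap and under the filter. CCL21, which draws CCR7-bearing cells, had 1268, 1744 and 1205 FPKM in large and 720 and 433 FPKM in small follicles. Its log2 fold change was 1.31 ± 0.31 and it was not called (limma adjusted p = 0.102). It was called with a common FPKM sum (0.0295) and under the replicate block (0.0226), and with no other setting.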

How the data were processed

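The authors deposited 1 table of FPKM per library for 3 large and 2 small follicle samples, from TRIzol RNA and a stranded mRNA kit, per the labels' protocols. Tools listed, per the submitters' processing notes, were featureCounts 1.5.0-p3, StringTie 1.3.3, HISAT2 2.0.5, Trimmomatic 0.38 and FastQC 0.11.4; the role of each is not stated, and the build was Sscrofa11.1. Chromosome numbers came from a RefSeq gene table of that assembly.

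Library totals and whole fragments were recovered from the FPKM steps within 0.001 of a fragment. Of 23353 genes above 0, 49.5% were whole with the listed length and 11791 with a shorter length found by search, which for genes seen in few libraries is a lower bound. Replicates differed by more than sampling noise, with a chi-square per degree of freedom of at least 28.5.

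Log2(FPKM + 1) was fitted with limma 3.58.1 (trend option, R 4.3.3). A check on simulated data with a fixed spread required only that large fold changes be recovered. It does not show how well changes as small as those of most members are found. All members are named. From related lists, called genes and up to 3 genes of smallest p could be named, and CXCR3, NCR1, FYN, CSK, PLCG1, FASLG, CD160, GNLY, S100A8, CPA3, IL2, IL7, IL21, MS4A1 and the rows known by description were added after their values were seen. The members and lists were chosen with earlier results of these data known. Alternatives covered pseudocounts, filters, scalings, variance models, a replicate block, voom and left-out libraries. A log2 fold change is given ± its SE, and an FPKM mean ± its SD. No member sequences are shown.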

Additional observations from a re-analysis of the deposited data

How the results depend on the processing

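Members called stayed at 0 in both directions except for CD4, called higher (1 gene) with median-of-ratios scaling and with quantile normalization. Over the other alternatives its limma adjusted p lay between 0.0582 and 0.584. CCL5 was called under none, at limma adjusted p values of 0.0886 to 0.645. CD4, IL2RG, CD3E, NKG7, GZMH, CCL5 and KLRK1 kept their direction in every alternative that tested them. Members without overlap numbered 5 higher and 5 lower of 37 with no filter, where 23.9% of all genes did not overlap, both directions together. They numbered 0 higher and 1 lower of 2 at a mean FPKM of at least 5 (26.2% of all genes). At a mean FPKM of at least 0.3 they were 4 higher and 3 lower of 24 (26.9%). With median-of-ratios scaling they were 5 higher and 2 lower of 13 (29.4%). With quantile normalization they were 4 higher and 2 lower of 13 (31.2%). The median log2 fold change was -0.060 at a mean FPKM of at least 5, where CCL5 and NKG7 alone remained.

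With 1 library left out, calls ranged from 0 to 0, members without overlap from 4 to 5 higher and from 1 to 3 lower, where 32.2% to 65.1% of all genes tested did not overlap, and the median from -0.011 to 0.27. In those fits log2 fold changes ranged from -0.12 to 0.21 for CD2, -0.27 to 0.046 for CD247, -0.062 to 0.15 for CD3G, -0.076 to 0.29 for CD5, -0.033 to 0.50 for LCK and -0.15 to 0.84 for LAT. A group left with 1 library was assumed to vary like the other. With replicate 2 of the large and replicate 1 of the small follicles both left out, an alternative chosen after seeing the data because each had the fewest genes at 1 FPKM in its group, 6 were higher and 3 lower without overlap, where 77.8% of all genes tested did not overlap, CD2 was at -0.057 and CD5 at 0.46.

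Scaling to a common FPKM sum moved the median of all genes to -0.19, and CD3G and CD2 to -0.012 and -0.061. CD247 was at 0.013 with quantile normalization and CD2 at -0.083 with library weights. The replicate block, which leaves large follicle replicate 3 unmatched, gave -0.062 for CD3G, -0.12 for CD2 and -0.045 for CD5, called 0 members and moved the calls among all genes to 157 against 128. The labels tie same-numbered libraries to no shared animal or day, and with 2 small follicle libraries, whose deviations mirror each other, the data cannot show a pairing. The cause of these shifts was not tested. Counts of a few fragments limit every comparison of the untested members.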

Other observations

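Most tested genes of common gamma chain signalling and of MHC class I had lower values in large follicles. Of 15 genes of that cytokine system 9 were tested, 2 with higher and 7 with lower values in large follicles, at a median log2 fold change of -0.30, and 5 of the 7 did not overlap. Among all genes tested 39.9% had higher values, 15.2% were lower without overlap and 10.4% had an unadjusted p under 0.05. By limma and by voom 0 were called, with 1 at an unadjusted p under 0.05: STAT3, a transcription factor of many cell types, at 5.62, 15.8 and 16.0 FPKM in large and 20.3 and 27.6 FPKM in small follicles (limma adjusted p = 0.417). The T cell growth factor gene IL2 was above 0 only in large follicle replicate 3, at 0.151 FPKM, and IL21 was at 0 in every library. The survival cytokine IL7 was under the filter and higher without overlap, at 0.166 to 0.278 FPKM in large and 0.0871 to 0.103 FPKM in small follicles. Of 6 tested genes of MHC class I and its loading, 1 had a higher and 5 a lower value, with 0 called by limma or voom and 0 at an unadjusted p under 0.05, and all 6 overlapped between the groups.

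Markers of mast cells and of B and plasma cells held 1 call each, beside LYZ among the myeloid markers. All were higher in large follicles, a direction called for 0.535% of all genes tested. Of the 2 tested mast cell genes 1 was higher and 1 lower in large follicles, each without overlap. Among all genes tested 10.9% were higher and 15.2% lower without overlap. Both mast cell genes were at an unadjusted p under 0.05, as were 10.4% of all genes tested. The lower one was not called. As it went the other way, the 1 call does not stand for the mast cell list. HDC, histidine decarboxylase, which makes histamine, rose to 87.1, 120 and 130 FPKM in large follicles, against 12.2 and 24.97 FPKM in small follicles (limma adjusted p = 0.00559, and 0.0764 with no filter), while the mast cell gene CPA3 was at 0 in every library. The markers of B and plasma cells had 4 tested genes with 1 called higher, MZB1, a chaperone of antibody-secreting cells, at 8.43, 11.3 and 6.45 FPKM in large and 2.24 and 1.53 FPKM in small follicles (limma adjusted p = 0.0398; voom called 0 of the 4). The MZB1 call was lost without large follicle replicate 1 (0.172), small follicle replicate 1 (0.0879) or small follicle replicate 2 (0.215), with no filter (0.151), with a pseudocount of 5 (0.0589), at a mean of 5 FPKM (0.0649), and under the common FPKM sum, quantile normalization and the replicate block (0.0513 to 0.0548). The B cell gene MS4A1 was at 0 in large follicle replicates 2 and 3 and did not exceed 0.126 FPKM in small follicles. All 4 tested red blood cell genes were higher without overlap, beside 10.9% of all genes tested. None was called by limma or voom, with 4 at an unadjusted p under 0.05, as were 10.4% of all genes tested. The 10 endothelial genes tested had 8 higher and 2 lower values at a median log2 fold change of 0.19, with 0 called by limma or voom and 1 at an unadjusted p under 0.05. Dendritic cell markers had 2 tested genes, both higher without overlap, beside the same 10.9% of all genes tested. By limma and by voom 0 of the 2 were called, with 1 at an unadjusted p under 0.05.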
